A study of Mus musculus with 6 samples.

Results

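Division of a hematopoietic progenitor depends on a set of genes that is switched on together late in the cell cycle. CDK1 with its cyclins starts mitosis, Aurora and Polo kinases build the spindle, kinetochores join chromosomes to its microtubules, and the spindle checkpoint holds back the anaphase-promoting complex (APC/C) until every chromosome is attached. Because these transcripts are abundant only in cells between S phase and division, their summed level in bulk RNA is widely read as a measure of how many cells are cycling. Here 41 such genes, taken from a list of symbols, were examined among the 24411 genes of bulk RNA-seq libraries from hematopoietic stem and progenitor cells with and without Brd9, which encodes a bromodomain subunit of the non-canonical BAF chromatin remodelling complex. All 41 were found and all 41 passed the expression filter.

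The 6 libraries fell into 2 groups. Brd9 KO (3 libraries) carried Mx1-Cre and Brd9fl/fl, and control (3 libraries) carried Brd9fl/fl alone. The recombinase and the loss of Brd9 therefore came together, and their effects cannot be told apart. Mx1-Cre is switched on by interferon, here through pIpC, a double-stranded RNA mimic, and acts in blood cells and in some other tissues. Both groups were CD45.2(+) C57BL/6 and received 3 doses of pIpC at 20 mg/kg, which the series design places 4 weeks after birth, and marrow of the femora and tibiae was taken 8 weeks later. The sources differ on the cells (lineage-negative in the labels, sorted Lin-c-Kit+ in the methods of the study), on the mice (transplant recipients or primary mice), on their age (the study describes older mice than the series design implies) and on whether the libraries were stranded. The study calls the libraries of each group biological triplicates, and the labels do not name the mouse behind each, so the p-values here measure the spread among the 6 libraries.

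The estimated counts of a library summed to between 21151031 and 28500168, and the lowest count of any of the 41 genes in any library was 496. The share of counting noise in the spread of single genes was not tested. Brd9 itself had 15.6, 13.5 and 21.0 CPM (counts scaled to library size by TMM) in the Brd9 KO libraries, against 45.9, 49.1 and 52.1 CPM in the control libraries (log2 fold change -1.56, SE 0.17, edgeR adjusted p = 0.00345), and each library matched its label. Reads from exons outside the deleted part still count toward these values. Brd9 KO library 3 stood apart in late neutrophil genes, whose 8 markers summed to 1127, 1286 and 7424 CPM in the Brd9 KO libraries, against 3021, 1615 and 2024 CPM in the control libraries. S100a8 and S100a9 made up most of the sum in library 3 (2036 and 3293 CPM). Camp of this list lay under every control, with 3.97, 2.76 and 38.0 CPM in Brd9 KO, against 244, 107 and 167 CPM in control. All others of the 8 were highest in Brd9 KO library 3. Results that rest on this library are therefore also given without it. The progenitor markers summed to 2211, 2094 and 2098 CPM in the Brd9 KO libraries, against 1752, 1576 and 1698 CPM in the control libraries, with Kit and Cd34 well expressed in every library, whereas of the B-lineage markers Igll1 and Vpreb1 stayed under 2 CPM. Cd79a of that list had 33.5, 34.7 and 85.1 CPM in Brd9 KO, against 38.2, 48.0 and 56.7 CPM in control, and Cd79b had 31.7, 28.8 and 45.2 CPM in Brd9 KO, against 40.5, 32.7 and 36.3 CPM in control.

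The promoters of these genes show what they share beyond their function. In the cell-cycle literature the CHR element is bound by the DREAM and MuvB complexes and CCAAT boxes by NF-Y. In RefSeq's table of mouse promoters (GRCm38.p6, the mm10 sequence), 34 of the 41 genes had an entry, with 37 start sites in all because Bub3, Ect2 and Prc1 had 2 each. Not matched were Tpx2, Spc24, Cdc25c, Aurkb, Ccna2, Kif20a and Incenp. In the 250 bases before the start, searched on both strands, CCAAT occurred at 30 of 37 starts (81.1%), against 33.9% of all 32851 starts in the table. At least 2 CCAAT matches stood at 20 of the 37 (54.1%), against 10.1% of all starts. A CHR match, spelled TTTGAA or TTCGAA, stood at 15 (40.5%), against 17.1%, and a CHR together with a CCAAT at 14 (37.8%), against 6.02%. No CHR match overlapped a CCAAT match. The E2F letters TTTCCCGC and TTTGGCGC were found at 0 of these starts and at 1.30% of all starts. These are matches of letters, not bound sites.

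The last 150 bases before the start are printed, 5′ to 3′, for 6 genes that the results below turn on: the 2 with the highest and the 2 with the lowest fold change (Cenpf and Cdc25b, Cenpa and Ube2c), and Cdk1 and Top2a, which hold both elements. Capitals mark CHR and CCAAT matches on either strand. They lie at chr1:189688087-189688236 (minus strand) for Cenpf, chr2:131186798-131186947 (plus strand) for Cdc25b, chr5:30666736-30666885 (plus strand) for Cenpa, chr2:164769779-164769928 (plus strand) for Ube2c, chr10:69352913-69353062 (minus strand) for Cdk1 and chr11:99024190-99024339 (minus strand) for Top2a.
Cenpf: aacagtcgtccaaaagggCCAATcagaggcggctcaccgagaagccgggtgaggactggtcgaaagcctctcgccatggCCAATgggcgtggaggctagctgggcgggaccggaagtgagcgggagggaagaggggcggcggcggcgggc
Cdc25b: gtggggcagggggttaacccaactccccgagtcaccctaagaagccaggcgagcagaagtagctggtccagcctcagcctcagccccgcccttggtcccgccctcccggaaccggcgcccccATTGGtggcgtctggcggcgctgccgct
Cenpa: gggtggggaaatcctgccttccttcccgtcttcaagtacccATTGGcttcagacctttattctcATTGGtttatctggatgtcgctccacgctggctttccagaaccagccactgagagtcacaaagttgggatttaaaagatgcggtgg
Ube2c: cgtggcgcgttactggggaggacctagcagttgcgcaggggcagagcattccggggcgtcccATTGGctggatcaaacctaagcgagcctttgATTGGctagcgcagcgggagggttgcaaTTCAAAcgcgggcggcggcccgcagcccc
Cdk1: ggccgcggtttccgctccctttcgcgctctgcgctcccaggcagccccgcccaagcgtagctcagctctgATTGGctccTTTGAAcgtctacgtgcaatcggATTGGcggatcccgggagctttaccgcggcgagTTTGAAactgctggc
Top2a: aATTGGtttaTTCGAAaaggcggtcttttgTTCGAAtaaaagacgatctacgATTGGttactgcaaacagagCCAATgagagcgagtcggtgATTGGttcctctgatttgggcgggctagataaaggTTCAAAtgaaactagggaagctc
In these windows Cdk1 and Top2a each held more than 1 CHR and more than 1 CCAAT match, and Ube2c held 1 CHR match close to its start. Cenpf, Cenpa and Cdc25b held CCAAT but no CHR letters, although the first 2 of them lay at opposite ends of the fold changes below.

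Summed over the 41 genes, no difference was detected beyond the spread between libraries. The 41 genes summed to 6019.7, 6458 and 6168 CPM in the Brd9 KO libraries, against 5977, 6389.8 and 6496 CPM in the control libraries. The mean was 6215 ± 223 against 6288 ± 274 CPM (SD, n = 3 each), and the groups overlapped. By role, the cyclin, CDK and CDC25 genes summed to 906, 904 and 957 CPM in Brd9 KO, against 994, 969 and 999 CPM in control. The APC/C and separase genes had 415, 413 and 462 CPM, against 530, 494 and 488 CPM. The spindle checkpoint genes had 572, 585 and 551 CPM, against 600, 599 and 587 CPM. The sums of the other roles overlapped, with Mki67 and Top2a at a mean of 1302.5 CPM in Brd9 KO and 1108 CPM in control. By the edgeR quasi-likelihood test at an adjusted p under 0.1 over the 12953 genes tested, 0 of 41 were called higher and 0 lower, where 9.19% of all genes were called higher and 6.25% lower. Without adjustment 5 of the 41 (12.2%) had p under 0.05 (Cdc25b and Cenpf above 0, Cenpa, Aurka and Cdc20 below), against 27.4% of all genes. DESeq2 called Cdc25b higher and Cdc20 lower, where it called 16.1% of all genes in either direction. That share is of 16959 genes without the expression filter, so it is not on the same base as the edgeR shares. DESeq2 had 6 of the 41 at unadjusted p under 0.05. Limma-voom called 0 of the 41 and had 6 at unadjusted p under 0.05, where it called 15.1% of all genes. In bulk RNA, fewer cycling cells and less RNA per cycling cell cannot be told apart, and neither can 2 opposite shifts that cancel.

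The fold changes were small. The median log2 fold change (Brd9 KO over control) of the 41 genes was -0.030, beside 0.016 over all tested genes, with 24 below 0 and 17 above. Its size without sign had a median of 0.11, beside 0.24 over all genes. Every one of the 41 lay between -0.5 and 0.5, the span that held 79.6% of all tested genes, from -0.40 (Cenpa) to 0.40 (Cenpf). A p that misses the threshold does not show equality, so the intervals matter more: the 95% interval lay within 1.5-fold in both directions for 35 of the 41 genes, reached past 1.5-fold lower for 3 (Cenpa, Ube2c and Birc5), and past 1.5-fold higher for 3 (Cenpf, Mki67 and Cdc25b). The SE ran between 0.0866 and 0.205, with a median of 0.121, beside 0.16 over all genes.

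**Figure D1:**
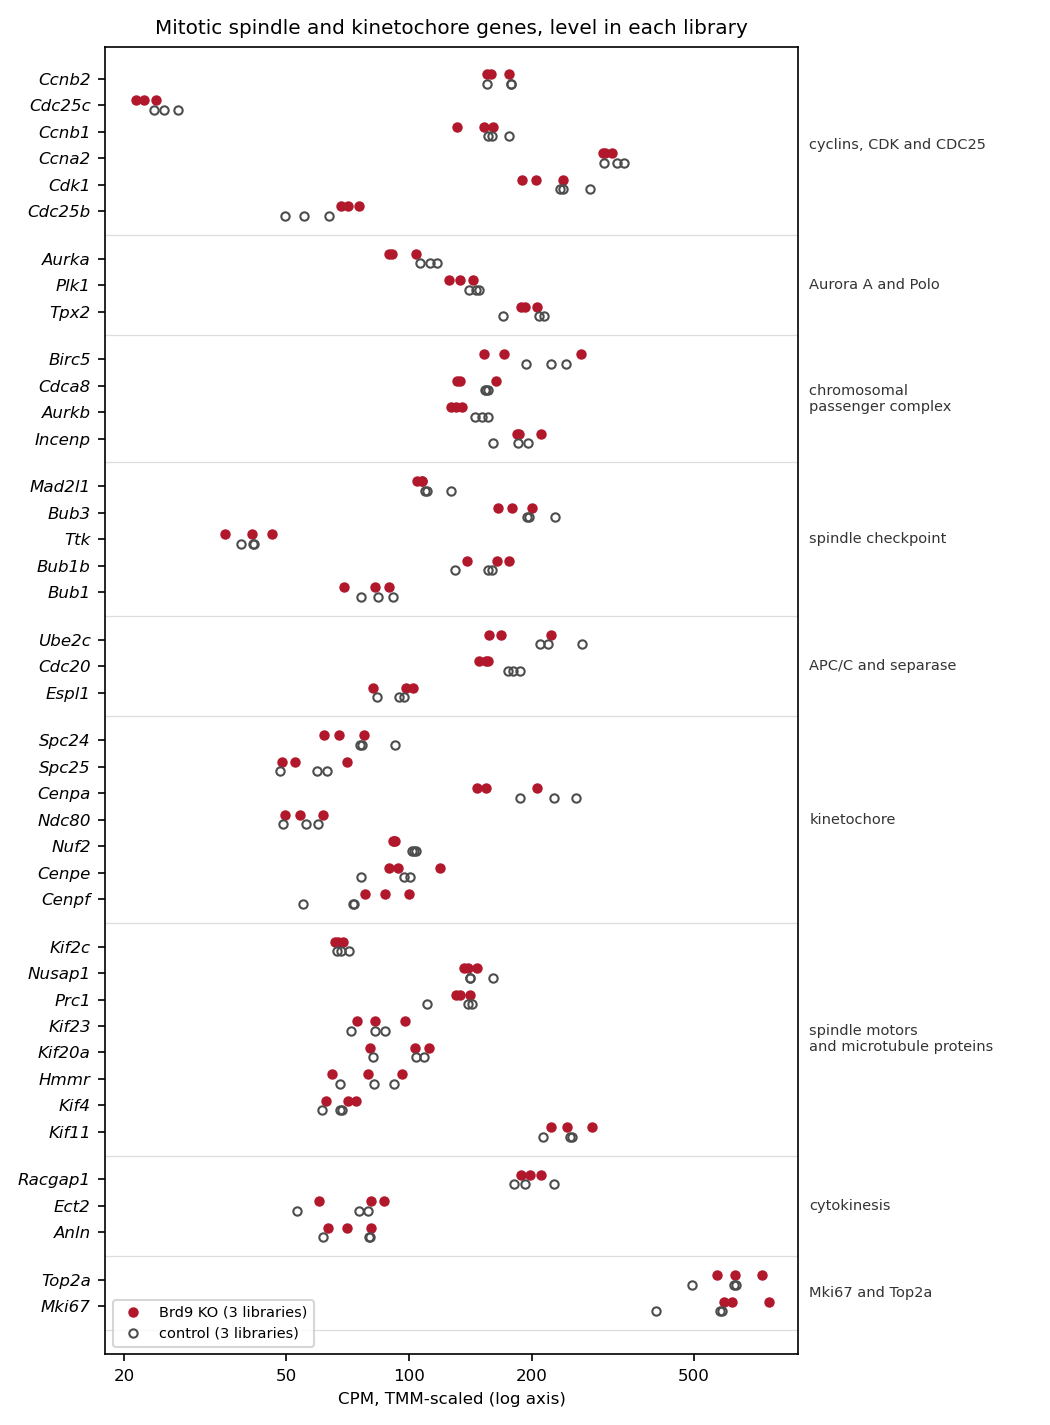
Level of each of the 41 genes in CPM (TMM-scaled, log axis), grouped by role and ordered by transcript length within a role, with filled points for the 3 Brd9 KO libraries above open points for the 3 control libraries. The groups overlap for 33 genes, the Brd9 KO points lie wholly above for 3 (Mki67, Cdc25b and Cenpf) and wholly below for 5 (Aurka, Aurkb, Mad2l1, Cdc20 and Nuf2).

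The 3 Brd9 KO libraries lay wholly above the 3 control libraries for 3 genes (Mki67, Cdc25b and Cenpf), which is 3 of 41 where 17.2% of all tested genes did so. They lay wholly below for 5 (Aurka, Aurkb, Mad2l1, Cdc20 and Nuf2), where 16.3% of all tested genes did so. Both shares lie under the background. With TPM in place of CPM these counts were 2 and 2, for which no share over all genes was taken.

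Compared per length, the most abundant of the 41 were small regulators. Ube2c, the ubiquitin-conjugating enzyme of the APC/C, had 351 ± 14.0 TPM (a length-scaled relative abundance) in Brd9 KO and 384 ± 4.51 TPM in control (SD, n = 3 each). Birc5, the survivin subunit of the chromosomal passenger complex, had 324 ± 54.2 TPM and 324 ± 15.6 TPM. Cenpa followed with 194 ± 7.73 TPM in Brd9 KO and 222 ± 15.5 TPM in control. Cenpf had the lowest level, 11.7 ± 3.08 TPM in Brd9 KO and 7.61 ± 1.92 TPM in control, below Cdc25c with 18.4 ± 1.70 and 17.7 ± 0.909 TPM. In control the levels of Ube2c, Birc5 and Cenpa were separated by more than their spread, whereas in Brd9 KO the levels of Ube2c and Birc5 were not.

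Among the genes that start mitosis (6 genes), the CDC25 phosphatase Cdc25b (chr2:131186949-131198497, mm10), which removes the inhibitory phosphates from CDK1, had the smallest p of the 41. Cdc25b had 68.0, 75.2 and 70.7 CPM in the Brd9 KO libraries, against 49.8, 55.2 and 63.8 CPM in the control libraries (log2 fold change 0.34, SE 0.12, edgeR adjusted p = 0.108). The groups did not overlap, yet the adjusted p missed the threshold, and its 95% interval ran between 0.076 and 0.61. Its exons overlap those of Spef1 on the other strand, so without known strandedness its count may hold reads of both. Cdk1 (chr10:69335146-69352938), the kinase that drives entry, had 205, 189.6 and 239 CPM in Brd9 KO, against 279, 235 and 239 CPM in control (log2 fold change -0.25, SE 0.12, edgeR adjusted p = 0.238), and library 3 of Brd9 KO lay among the controls. Cdc25c, a second phosphatase of this family, had 22.3, 21.4 and 23.9 CPM, against 27.1, 23.7 and 25.1 CPM in control (log2 fold change -0.17, SE 0.11, edgeR adjusted p = 0.355). The cyclins Ccna2, Ccnb1 and Ccnb2, the regulatory partners of CDK1, overlapped between groups, with log2 fold changes of -0.069, -0.15 and -0.057 and adjusted p of 0.67, 0.417 and 0.757.

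Aurora A, its activator and Polo kinase, which mature the centrosomes and the spindle poles, had log2 fold changes below 0, and none was called. Aurka (chr2:172356190-172370535) had 89.4, 90.8 and 104 CPM in Brd9 KO, against 106, 117 and 113 CPM in control (log2 fold change -0.24, SE 0.10, edgeR adjusted p = 0.179), with no overlap between the groups. Plk1 (chr7:122159439-122169873) had 125, 133 and 143 CPM, against 146, 148 and 140.2 CPM in control (log2 fold change -0.11, SE 0.10, edgeR adjusted p = 0.471), where Brd9 KO library 3 alone reached the control range. Tpx2 (chr2:152847964-152895321), which activates Aurora A on spindle microtubules, had 188, 206 and 192 CPM, against 170.2, 214 and 208 CPM in control (log2 fold change -0.015, SE 0.12, edgeR adjusted p = 0.943), and the groups were mixed.

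The chromosomal passenger complex, which corrects faulty attachments at centromeres, held 3 genes below 0 and 1 above, none called. Its kinase Aurkb (chr11:69045647-69051664) had 135, 130.3 and 127 CPM in Brd9 KO, against 157, 151 and 145 CPM in control (log2 fold change -0.21, SE 0.091, edgeR adjusted p = 0.185), and the groups did not overlap. Its targeting subunit borealin, Cdca8 (chr4:124918465-124939311), had 134, 131 and 164 CPM, against 156, 155 and 154 CPM in control (log2 fold change -0.12, SE 0.11, edgeR adjusted p = 0.528), with library 3 of Brd9 KO above all controls and the other two below them. The scaffold Incenp (chr19:9872296-9899551) had 186, 211 and 184 CPM, against 161, 196 and 185 CPM in control (log2 fold change 0.10, SE 0.11, edgeR adjusted p = 0.596). Birc5 showed the same placing of library 3 as Cdca8, with 171, 153 and 264 CPM in Brd9 KO, against 243, 194 and 223 CPM in control (log2 fold change -0.17, SE 0.21), the widest SE of the 41.

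The spindle checkpoint (5 genes) delays anaphase while a kinetochore is unattached. Bub3 (chr7:131560222-131571895), which brings the BUB kinases to kinetochores, had 179, 165 and 200.1 CPM in Brd9 KO, against 228, 197 and 194 CPM in control (log2 fold change -0.19, SE 0.12, edgeR adjusted p = 0.334). Mad2l1 (chr6:66535390-66547220), the checkpoint protein that captures CDC20, had 105, 108 and 108 CPM, against 127, 109 and 111 CPM in control (log2 fold change -0.12, SE 0.10, edgeR adjusted p = 0.472), where the highest Brd9 KO value lay just under the lowest control value. Bub1b (chr2:118598211-118641591), encoding BUBR1, had 165, 176 and 139 CPM, against 129.8, 160.2 and 156 CPM in control (log2 fold change 0.10, SE 0.13, edgeR adjusted p = 0.638). The kinases Bub1 and Ttk overlapped between groups, at log2 fold changes of -0.058 and 0.011.

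Of the genes that end mitosis, the APC/C activator Cdc20 (chr4:118432901-118437352) had narrow groups, 149, 154 and 157 CPM in Brd9 KO, against 180.1, 187 and 175 CPM in control (log2 fold change -0.24, SE 0.090, edgeR adjusted p = 0.139). They did not overlap, and DESeq2 called the gene lower (adjusted p = 0.0785). Its exons overlap Elovl1 on the other strand. Ube2c (chr2:164769898-164778822) had 168, 157 and 224 CPM, against 266, 209 and 219 CPM in control (log2 fold change -0.34, SE 0.16, edgeR adjusted p = 0.216), and again library 3 of Brd9 KO fell among the controls. Espl1 (chr15:102296266-102324357), the separase that cleaves cohesin, had 98.3, 102 and 81.4 CPM, against 83.3, 97.2 and 94.3 CPM in control (log2 fold change 0.037, SE 0.12, edgeR adjusted p = 0.866).

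Kinetochore genes (7 genes) held both extremes. Cenpf (chr1:189640606-189688086), a large protein of the outer kinetochore, had 87.1, 100.2 and 78.0 CPM in Brd9 KO, against 55.0, 73.0 and 73.4 CPM in control (log2 fold change 0.40, SE 0.15, edgeR adjusted p = 0.134), with no overlap. Cenpa (chr5:30666777-30674830), the histone H3 variant that marks the centromere, had 154, 147 and 206 CPM, against 258, 187 and 226 CPM in control (log2 fold change -0.40, SE 0.17, edgeR adjusted p = 0.171), where Brd9 KO library 3 lay within the controls and the other two below them. The NDC80 complex, the microtubule anchor, has 4 subunits, all of them measured. Spc24 (chr9:21755442-21760303) had 67.4, 61.8 and 77.7 CPM, against 92.5, 76.8 and 75.8 CPM in control (log2 fold change -0.25, SE 0.13, edgeR adjusted p = 0.253). Nuf2 varied little within groups, with 91.4, 92.4 and 92.0 CPM in Brd9 KO, against 104, 103 and 101 CPM in control (log2 fold change -0.16, adjusted p = 0.262). Ndc80 and Spc25 were at 0.0021 and 0.0098 on the log2 scale, and the kinetochore motor Cenpe was at 0.14 (adjusted p = 0.578), all overlapping.

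Spindle motors and microtubule proteins (8 genes) lay within a narrow band, from -0.069 to 0.077 on the log2 scale, and all 8 overlapped between groups. Nusap1 (chr2:119618298-119651244), which bundles microtubules around chromosomes, had 136, 139 and 147 CPM in Brd9 KO, against 141, 141 and 161 CPM in control (log2 fold change -0.069, SE 0.10, edgeR adjusted p = 0.68). The chromokinesin Kif4 (chrX:100625737-100727214) had 71.0, 74.1 and 62.5 CPM, against 61.2, 68.7 and 67.7 CPM in control (log2 fold change 0.072, SE 0.11, edgeR adjusted p = 0.684). Kif23 (chr9:61915905-61946774), the centralspindlin motor, had 82.6, 97.5 and 74.7 CPM, against 72.2, 82.5 and 87.2 CPM in control (log2 fold change 0.077, SE 0.13, edgeR adjusted p = 0.733). The others were Kif11, which separates the poles (0.072), Kif20a of the midzone (0.0062), the depolymerase Kif2c (-0.030), the antiparallel bundler Prc1 (0.043) and the hyaluronan-mediated motility receptor Hmmr (-0.0081), with adjusted p between 0.738 and 0.984.

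Cytokinesis genes lay in a similar band. The RhoA exchange factor Ect2 (chr3:27097222-27153878) had 80.6, 87.1 and 60.2 CPM in Brd9 KO, against 53.2, 79.5 and 75.3 CPM in control (log2 fold change 0.13, SE 0.19, edgeR adjusted p = 0.676). Anillin, Anln (chr9:22332012-22389188), a scaffold of the cleavage furrow, had 70.4, 80.7 and 63.1 CPM, against 61.5, 79.6 and 80.4 CPM in control (log2 fold change -0.048, SE 0.14, edgeR adjusted p = 0.852). Racgap1 (chr15:99620496-99651656), the partner of Kif23 in centralspindlin, had 189, 199 and 210.4 CPM, against 181, 192 and 227 CPM in control (log2 fold change -0.0043, SE 0.12, edgeR adjusted p = 0.985). The groups overlapped for all 3.

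Mki67 (chr7:135689784-135716361), the proliferation antigen that coats mitotic chromosomes, had 619, 765 and 593 CPM in Brd9 KO, against 403, 578 and 587 CPM in control (log2 fold change 0.33, SE 0.17, edgeR adjusted p = 0.254). The Brd9 KO libraries lay above every control, though by only a few CPM between library 3 of each group. Top2a (chr11:98992943-99024189), the topoisomerase that untangles sister chromatids, had 629, 733 and 568 CPM, against 495, 635 and 625 CPM in control (log2 fold change 0.14, SE 0.15, edgeR adjusted p = 0.567). In both genes control library 1 was the lowest of the 6.

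**Figure D2:**
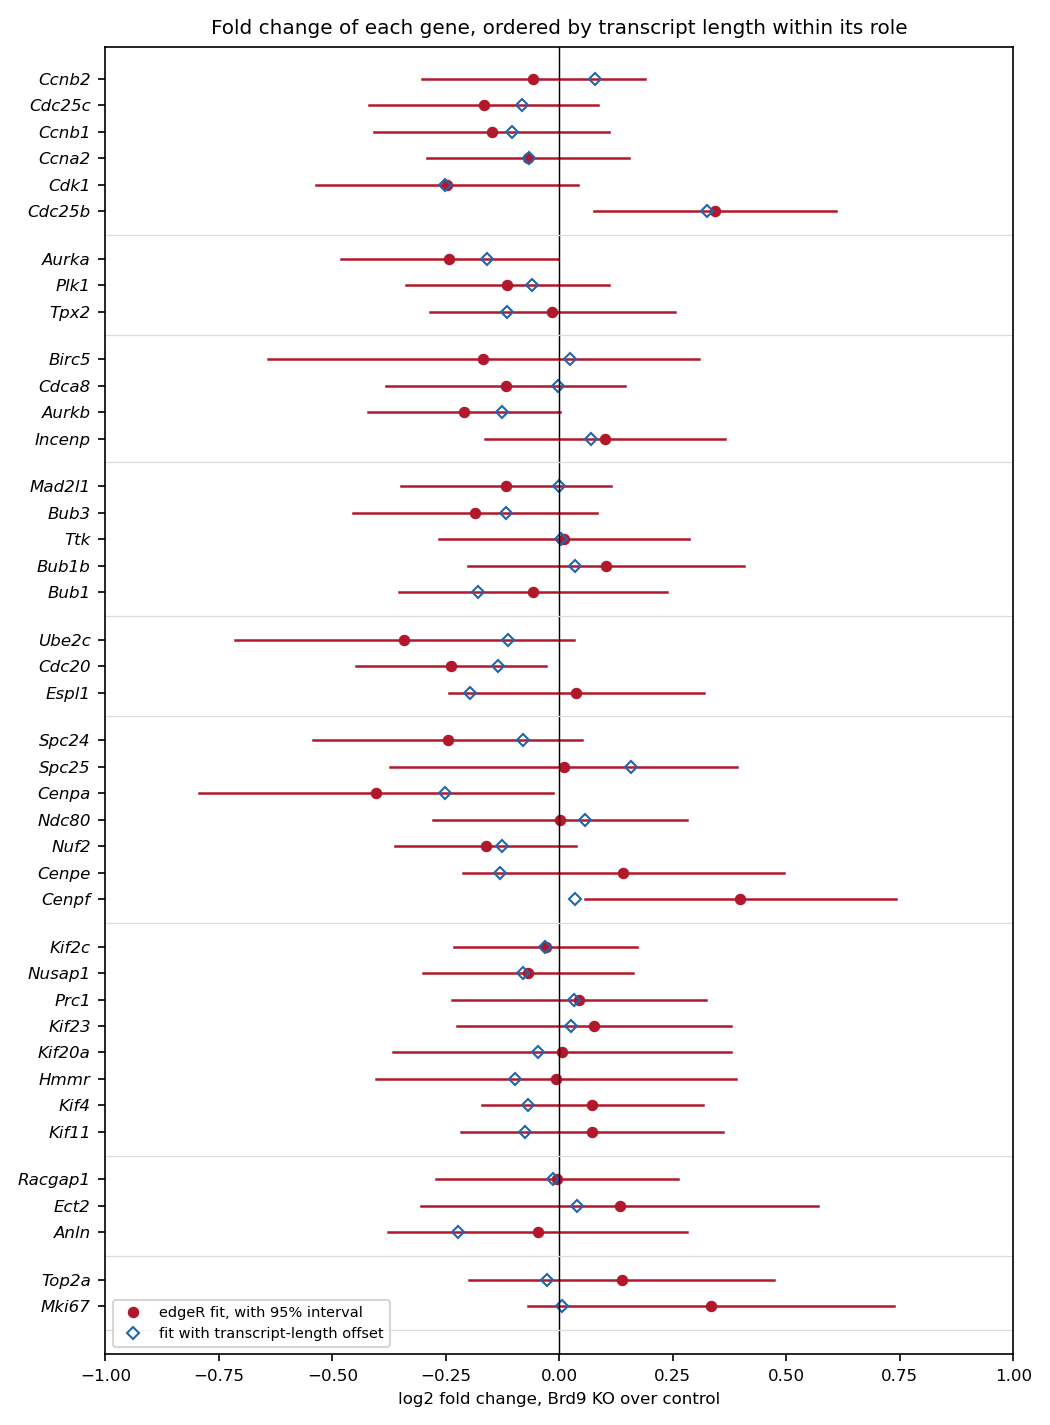
Log2 fold change (Brd9 KO over control) of the 41 genes, by role and from the shortest to the longest transcript within a role, with red points and lines for the edgeR estimate and its 95% interval and open diamonds for the fit with a transcript-length offset. All red points lie between -0.5 and 0.5, and Cenpa, Ube2c, Cenpf and Mki67 move toward 0 in the second fit, whereas Cdc25b, the second highest, stays near its value.

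The small differences that remained followed the length of the transcript. The 10 shortest transcripts (931 to 1901 bases: Ube2c, Birc5, Spc24, Spc25, Cenpa, Ccnb2, Cdca8, Mad2l1, Cdc20 and Aurka) had a median log2 fold change of -0.20, with 9 of 10 below 0. The 10 longest (4191 to 11122 bases: Tpx2, Bub1, Kif4, Kif11, Top2a, Anln, Espl1, Cenpe, Mki67 and Cenpf) had 0.072, with 7 of 10 above 0. Across the 41 genes the log2 fold change correlated with log2 length at Pearson r = 0.77 and Spearman rho = 0.77, a rise of 0.16 per doubling of length. Over the 12953 tested genes the same values were r = 0.27, rho = 0.38 and 0.15 per doubling. These are descriptions across genes that share the same 6 libraries, and genes are not independent replicates. The 41 genes thus followed a slope that the tested genes as a whole showed.

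**Figure D3:**
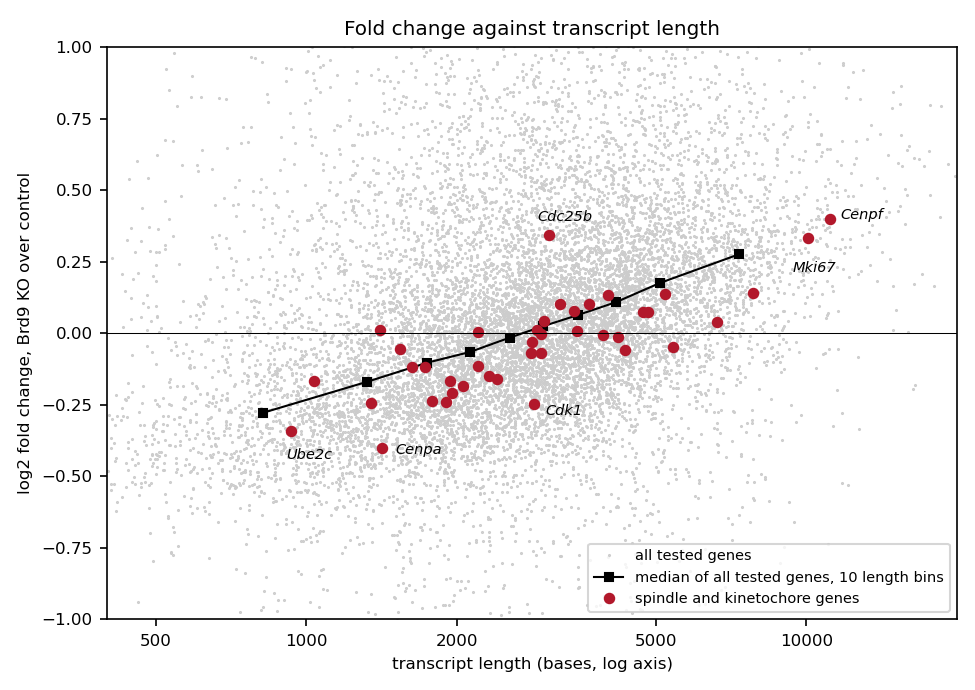
Log2 fold change (Brd9 KO over control) against transcript length in bases (log axis) for all tested genes within the plotted range (grey), their medians in 10 bins of length (black squares) and the 41 spindle and kinetochore genes (red). The black medians climb between -0.28 and 0.28, and most red points lie along or below that line, with Cdc25b above it.

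Over all tested genes the median log2 fold change was -0.28 in the shortest of 10 length bins (median length 821 bases) and 0.28 in the longest bin (7328 bases). Of the shortest bin 2.78% were called higher and 9.79% lower, and of the longest bin 18.1% were called higher and 1.85% lower. The libraries did not share the slope equally. Against the control mean, the 10 shortest of the 41 genes had median log2 deviations of -0.27, -0.27 and -0.055 in Brd9 KO libraries 1, 2 and 3, against 0.14, -0.11 and 0.0015 in control libraries 1, 2 and 3. The 10 longest had 0.078, 0.21 and -0.053 in Brd9 KO, against -0.22, 0.13 and 0.092 in control. Brd9 KO libraries 1 and 2 were thus tilted toward long transcripts and control library 1 the opposite way. Brd9 KO library 3 was nearly level against the control mean only. Against the mean of the 6 libraries its slope over all tested genes was -0.089 per doubling, toward short transcripts. The tilt thus differed between libraries of the same group, and what produced it was not tested.

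**Figure D4:**
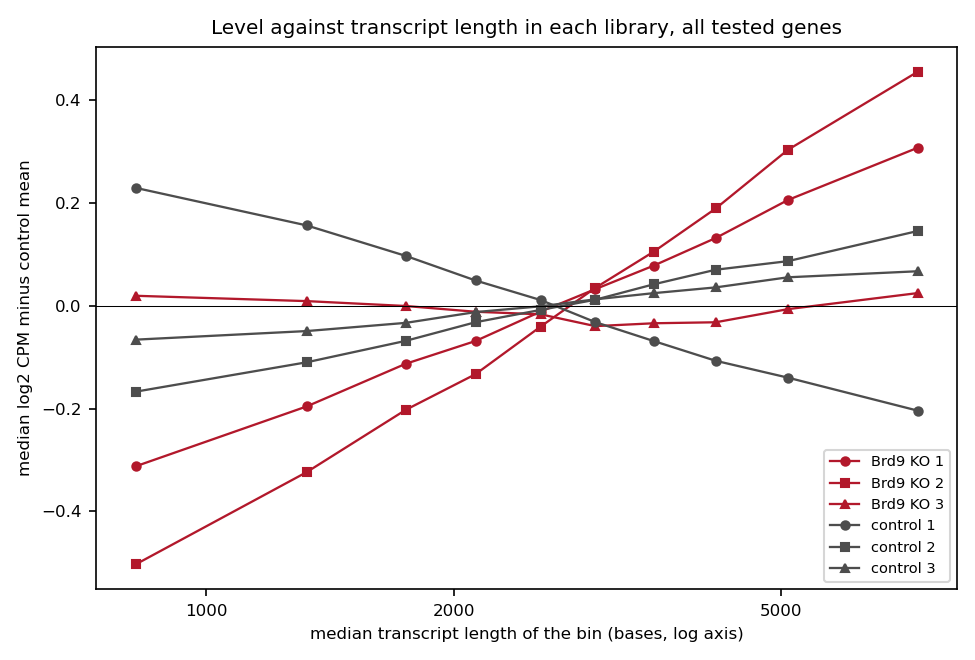
Median log2 CPM of all tested genes minus the control mean, in 10 bins of transcript length (bases, log axis), 1 line per library (red: Brd9 KO, grey: control). Brd9 KO library 2 climbs most, between -0.50 and 0.46, control library 1 falls between 0.23 and -0.20, and Brd9 KO library 3 stays near 0.

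With the length trend of each library entered as an offset, a fit chosen after seeing the data, the spread of the 41 log2 fold changes shrank to an SD of 0.11, against 0.17 without the offset. Cenpf then stood at 0.035 (adjusted p = 0.794), Mki67 at 0.0053 (adjusted p = 0.974) and Ube2c at -0.11 (adjusted p = 0.269). Cenpa stood at -0.25 (adjusted p = 0.117), against -0.40 without the offset, and Cdk1 kept -0.25 (adjusted p = 0.192). This fit called 1 of the 41 higher, Cdc25b (0.32, SE 0.095, adjusted p = 0.0626), where it called 11.9% of all genes higher. It called 2 lower, Anln (-0.22, SE 0.073, adjusted p = 0.0845) and Espl1 (-0.20, SE 0.067, adjusted p = 0.0926), where it called 9.98% of all genes lower. Espl1 changed sign between the fits.

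Brd9 KO library 3 differed from Brd9 KO libraries 1 and 2 in its length slope as well as in its late neutrophil sum. Over all tested genes its slope was -0.089 per doubling, against 0.10 and 0.20 in Brd9 KO libraries 1 and 2. Without Brd9 KO library 3, the edgeR test called 2 of the 41 higher (Cdc25b and Cenpf) and 6 lower (Cdk1, Aurka, Cenpa, Birc5, Spc24 and Ube2c), where it called 16.3% of all genes higher and 15.3% lower. The largest of these, Cenpa, stood at -0.57 (SE 0.15, adjusted p = 0.0354), and Cdc25b at 0.35 (adjusted p = 0.0866). Leaving out any of the other 5 libraries called 0 of the 41, where those fits called between 4.88% and 7.68% of all genes. With the length offset and without Brd9 KO library 3, Cdc25b was called higher and Cdk1, Cenpa, Anln and Espl1 lower. Aurka, Birc5, Spc24, Ube2c and Cenpf were not called in that fit. That fit called 25.9% of all genes in either direction. Cdc25b was called higher by DESeq2, without Brd9 KO library 3, with the length offset, and with both of the last changes together, at a log2 fold change between 0.31 and 0.35.

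Other genes of cell division were examined in 8 lists. In the 7 lists of mitosis and its control, 4 of 127 genes were called higher and 5 lower (edgeR, adjusted p under 0.1), shares of 3.15% and 3.94% beside the 9.19% and 6.25% of all genes, with a median log2 fold change of -0.046. Condensin (8 genes), the APC/C and its regulators (17), the entry kinases and CDK partners (12) and other spindle and cytokinesis genes (23) held 0 calls by this test with all 6 libraries and 0 by DESeq2, with 1 of their genes (Cdc16) at unadjusted p under 0.05. Their smallest p belonged to Ncaph2 (-0.087) and Ncapd3 (0.14) of condensin, Cdc16 (-0.25) and Cdc26 (-0.30) of the APC/C, the CDK1-inhibiting kinase Wee1 (-0.23) and Pbk (-0.23), and Ckap5 (0.30) and Kif14 (0.29), all log2 fold changes with adjusted p between 0.181 and 0.613. The length-offset fit called lower Anapc1 of the APC/C (-0.34, adjusted p = 0.0467) and Wee1 (-0.28, adjusted p = 0.0458). Without Brd9 KO library 3, 4 APC/C genes and 5 entry genes were called lower and 3 other spindle genes higher, where 15.3% of all genes were lower and 16.3% higher.

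Of 21 regulators of cell-cycle transcription, 3 were called higher and 1 lower, where 9.19% and 6.25% of all genes were. E2f7, an E2F family repressor, had 21.8, 22.2 and 20.9 CPM in the Brd9 KO libraries, against 11.2, 13.9 and 14.8 CPM in the control libraries (log2 fold change 0.70, SE 0.14, edgeR adjusted p = 0.0265). Rbl2, the pocket protein p130 of the DREAM repressor complex, had 96.3, 98.6 and 86.5 CPM, against 61.0, 72.4 and 75.2 CPM in control (log2 fold change 0.43, SE 0.12, edgeR adjusted p = 0.0619). The related repressor E2f8 was also called higher (0.55) and E2f4, the E2F of the DREAM complex, lower (-0.34), both named after their values were seen. In the literature the DREAM complex acts at CHR elements and holds mitotic genes down in resting cells. Of the printed windows only those of Ube2c, Cdk1 and Top2a held CHR letters. Whether the complex acted at any of these promoters was not tested. With the length offset 4 of the 21 were called higher and 2 lower, where 11.9% and 9.98% of all genes were. In that fit E2f7 stood at 0.53 (adjusted p = 0.0205), Rbl2 at 0.29 (adjusted p = 0.034) and Mybl2, the B-Myb activator of mitotic genes, was called lower at -0.40 (adjusted p = 0.0397).

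Among other kinetochore and centromere genes 3 of 33 were called lower (6.25% of all genes were), with transcripts of 1054 to 1557 bases. Cenpm, a subunit of the constitutive centromere network, had 25.5, 21.4 and 25.6 CPM in Brd9 KO, against 35.1, 33.7 and 32.8 CPM in control (log2 fold change -0.49, SE 0.11, edgeR adjusted p = 0.0409), from a transcript of 1201 bases. Oip5, which takes part in the loading of CENP-A at centromeres, had 20.2, 19.0 and 23.1 CPM, against 29.3, 24.5 and 28.4 CPM in control (log2 fold change -0.40, SE 0.13, edgeR adjusted p = 0.0944). Cenpp was the third (-0.41). With the length offset 5 of the 33 were called lower (9.98% of all genes were), Cenpm and Oip5 among them, and Cenpp was not (adjusted p = 0.32). Of the centriole, augmin and gamma-tubulin genes (13), Cenpj of the centriole had 19.4, 23.6 and 20.1 CPM, against 14.5, 16.7 and 16.1 CPM in control (log2 fold change 0.42, SE 0.13, edgeR adjusted p = 0.0944), and the augmin subunit Haus1 had 34.7, 31.9 and 38.9 CPM, against 52.7, 41.8 and 44.1 CPM in control (log2 fold change -0.39, SE 0.13, edgeR adjusted p = 0.0987). In the offset fit Cenpj was called higher (0.30) and Haus1 was not called (-0.17, adjusted p = 0.177).

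Genes of an earlier part of the cell cycle held calls in 1 direction. Of 19 genes of the G1/S transition and DNA replication 5 were called lower (26.3%, where 6.25% of all genes were) and 0 higher, and all 19 log2 fold changes lay below 0, with a median of -0.20. The called genes were Cdt1, Cdc6, Gins1, Gins2 and Rrm2. Cdt1, which loads the MCM helicase on origins, had 135, 139.7 and 150.3 CPM in Brd9 KO, against 195, 193 and 194 CPM in control (log2 fold change -0.45, SE 0.092, edgeR adjusted p = 0.0286), and Cdc6, its partner in licensing, had 83.8, 91.5 and 81.4 CPM, against 112, 119 and 116 CPM in control (log2 fold change -0.43, SE 0.10, edgeR adjusted p = 0.036). With the length offset both were called, Cdt1 at -0.40 and Cdc6 at -0.56. In that fit 7 of 19 were called lower (36.8%, where 9.98% of all genes were). The count changed with the library left out: without Brd9 KO library 1 the count was 0, and without any 1 of the other libraries except Brd9 KO library 3 it was 1 or 2. Without Brd9 KO library 3 it was 8 (42.1%, where 15.3% of all genes were called lower). In the 7 mitotic lists, leaving out any 1 library other than Brd9 KO library 3 left E2f7 alone called higher and 0 lower. Those fits called between 4.88% and 7.68% of all genes. Leaving out Brd9 KO library 3 gave 8 of 127 higher (6.30%) and 21 lower (16.5%), where 16.3% and 15.3% of all genes were.

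**Figure D5:**
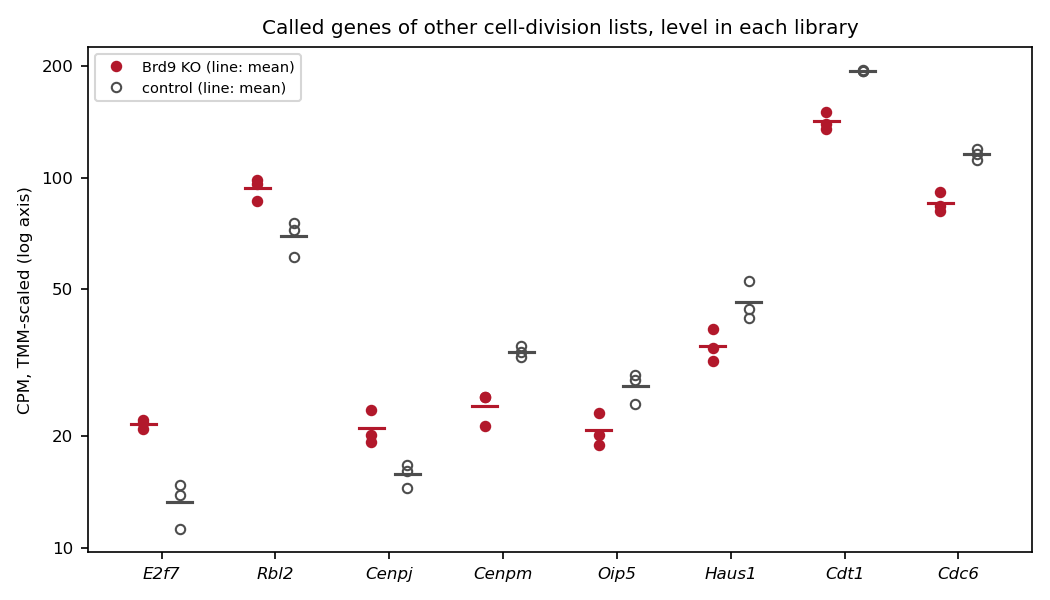
Level in each library (CPM, TMM-scaled, log axis; line at the mean) of the called genes with the smallest p in the transcription (E2f7 and Rbl2), centriole (Cenpj and Haus1), kinetochore (Cenpm and Oip5) and G1/S (Cdt1 and Cdc6) lists, with Brd9 KO left of control. These genes were chosen because they were called. The 3 Brd9 KO points lie wholly above the 3 control points for E2f7, Rbl2 and Cenpj and wholly below them for the other genes shown.

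Marker genes of several cell types were called between the groups, where 9.19% of all genes were called higher and 6.25% lower. The granulocyte progenitor markers (Mpo, Elane, Prtn3 and Ctsg) summed to 9957, 10094 and 11957 CPM in the Brd9 KO libraries, against 20201, 18707 and 16631 CPM in the control libraries, with Mpo and Elane called lower. The erythroid markers summed to 1825, 1824 and 2564 CPM in the Brd9 KO libraries, against 2924, 2950.2 and 3363 CPM in the control libraries with 5 of 8 called lower (smallest p in Car2 and Klf1), and the megakaryocyte markers to 3970.2, 2953 and 3012 CPM in the Brd9 KO libraries, against 2329, 1384 and 1366 CPM in the control libraries with 3 of 6 called higher (smallest p in Vwf and Itga2b). The eosinophil markers summed to 3576, 3461 and 6887 CPM in the Brd9 KO libraries, against 2238, 1680.3 and 1926 CPM in the control libraries, where 3 of 4 were called higher and Epx lower (smallest p in Il5ra and Ccr3). Stroma markers summed to 113, 142 and 86.5 CPM in the Brd9 KO libraries, against 25.0, 26.4 and 41.8 CPM in the control libraries with 4 of 6 called higher (smallest p in Cxcl12 and Igfbp5). T and NK markers summed to 144, 134 and 182 CPM in the Brd9 KO libraries, against 316, 278 and 245 CPM in the control libraries with Ncr1 called higher and Nkg7 lower. Nkg7 made up most of that sum (137 ± 21.8 CPM in Brd9 KO and 268 ± 37.7 CPM in control, SD, n = 3 each), whereas 4 of the 6 markers had log2 fold changes above 0 (Cd3e 0.46, Cd3d 0.52, Cd3g 0.69 and Ncr1 1.26). Of the macrophage markers C1qc and 3 others were called higher and Vcam1 lower of 6, and their sum, 56.1, 77.7 and 93.4 CPM in the Brd9 KO libraries, against 66.5, 94.4 and 100.4 CPM in the control libraries, overlapped. Of the B lineage, Igll1 and Vpreb1 were called lower, and its sum, 67.3, 65.5 and 133 CPM in the Brd9 KO libraries, against 84.9, 84.2 and 98.3 CPM in the control libraries, overlapped too. Of the progenitor markers 1 of 6 was called higher, Gata2, with Myb next by p, and of the late neutrophil markers 1 of 8 was called lower, Camp, with S100a9 next (0.92, adjusted p = 0.422). Without Brd9 KO library 3, 5 of these 8 were called lower (Camp, Ltf, Ngp, Mmp8 and Mmp9), where 15.3% of all genes were. S100a9 then stood at -0.57 and Ngp at -1.61, against 0.30 for Ngp with all libraries. In that fit 4 granulocyte progenitor, 7 erythroid and 4 B-lineage markers were also called lower. Progenitors of these lineages divide at different rates, and the part of cell composition in the levels of the 41 genes was not tested.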

How the data were processed

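Gene expression was measured by poly(A)-selected RNA-seq in 6 libraries, grouped by the genotype in the labels. Per the methods of the study, the authors mapped reads to mm10 by STAR and RSEM in an nf-core workflow. The deposited files hold, for each gene, an expected count (RSEM's estimated count, which need not be whole) and the TPM that the authors' RSEM run computed, with transcript lengths. All expected counts of the 41 genes were whole. The members and all gene lists were chosen with earlier results of these data known.

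Expected counts were rounded, filtered with filterByExpr, scaled by TMM (factors 0.927 to 1.08) and compared with edgeR 4.0.16 (quasi-likelihood, no covariate) in R 4.3.3, with Benjamini-Hochberg adjustment over 12953 genes and calls at an adjusted p under 0.1. SE is the log2 fold change over the root of F. All 41 genes are named. Full values are given for up to 3 genes per role, and values for up to 2 per other list, with the smallest p. Genes named beyond this rule were chosen after their values were seen. Knl1, Sgo1 and Sgo2a were matched by their older symbols. Alternatives were other scalings, filters, thresholds, a robust fit, a replicate block, DESeq2 1.42.0, limma-voom and limma 3.58.1 on log2(TPM + 1) or log2(TPM + 0.1), leaving out each library and, chosen after seeing the data, a loess fit of each library's deviations on log2 length as an offset. Transcript lengths are the means over libraries of the deposited lengths. Gene positions are from GENCODE M21 (mm10). Of the 41 genes, 11 have exons that overlap a gene on the other strand, and their counts are uncertain if the libraries were unstranded. Libraries of a group differed by more than sampling noise and were all kept as separate. The chi-square per degree of freedom, taken for each pair of libraries and not for single genes, was 11.1 to 84.7.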

Additional observations from a re-analysis of the deposited data

How the results depend on the processing

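Of the 41 genes, 0 were called in either direction under RLE scaling, library totals, no filter, a stricter filter, limma-voom, both TPM fits, the robust fit, the replicate block and the stricter thresholds. DESeq2 called 1 higher and 1 lower, the length offset 1 and 2, the length offset without Brd9 KO library 3 1 and 4, and leaving out 1 library between 0 and 2 higher and between 0 and 6 lower. In either direction DESeq2 called 16.1% of all genes (16959, without the expression filter). The length offset called 21.8%, and that offset without Brd9 KO library 3 25.9%. RLE scaling, library totals, no filter, the stricter filter, limma-voom, both TPM fits, the robust fit and the replicate block called between 10.3% and 16.0%. At the stricter thresholds no share of all genes was taken. Leaving out Brd9 KO library 3 alone called 31.6%. The median log2 fold change of the 41 genes was 0.058 with library totals (all genes 0.10), 0.18 with log2(TPM + 1) (all genes 0.18) and 0.19 with log2(TPM + 0.1) (all genes 0.22). All 3 scalings raised the median of all genes, and single genes moved by unequal amounts (with log2(TPM + 1) Cenpf stood at 0.56 and Mki67 at 0.55). With 1 library left out the median ran from -0.093 to 0.0047. Genes with Brd9 KO wholly below control numbered 3 with library totals and 2 with TPM, against 5. The share over all genes was not taken with library totals or TPM. Espl1 changed sign to -0.20 with the length offset and to -0.20 with that offset and without Brd9 KO library 3. The cause was not tested.

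Among the 127 other mitotic genes, the 4 called higher became 1 with either TPM fit, at an adjusted p under 0.05 and with 1.5-fold required, and between 1 and 8 with 1 library left out. The 5 called lower became 1 with library totals, 2 with no filter, 0 with either TPM fit, 9 with the length offset, 10 with that offset and without Brd9 KO library 3, 1 at an adjusted p under 0.05, 0 with 1.5-fold required, and between 0 and 21 with 1 library left out. The 5 called G1/S genes became 3 with library totals, 0 with either TPM fit, 3 at an adjusted p under 0.05, 0 with 1.5-fold required, and between 0 and 8 with 1 library left out. Of all genes the length offset called 9.98% lower, and leaving out Brd9 KO library 3 called 15.3% lower. Brd9 was called lower under all 18 alternatives, between -1.75 and -1.28.

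Libraries with the same replicate number were not treated as pairs. Their deviations correlated at -0.089, 0.47 and 0.020, and those of differently numbered libraries at values between -0.46 and 0.38. These values do not settle whether the numbers pair the libraries. With the replicate block 0 of the 41 genes were called, their median was -0.030, and 2077 genes were called in all, against 1999 without it. With 3 libraries a group, changes under about 1.5-fold in a single gene are within the 95% intervals of several of these genes.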

Other observations

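Several of the 41 genes were ordered by library in the same way whatever their role. Control library 1 was the lowest of the 6 libraries for 15 of the 41 genes and the highest for 9, and Brd9 KO library 2 was the highest for 16 and the lowest for 8. Control library 3 was the lowest for 0 and Brd9 KO library 1 the highest for 0. Within a library the slope of log2 CPM deviations (from the mean of the 6 libraries) on log2 length across the 41 genes was 0.11, 0.23 and -0.094 per doubling in Brd9 KO libraries 1, 2 and 3, against -0.25, 0.025 and -0.026 in control libraries 1, 2 and 3. Over all tested genes the slopes were 0.10, 0.20 and -0.089 in Brd9 KO, against -0.20, 0.022 and -0.035 in control. The order of the libraries is thus close to the same in both sets.

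With the length offset, the median size of the log2 fold change without sign was 0.079 over the 41 genes, beside 0.19 over all tested genes, and the 41 values ran between -0.25 (Cenpa) and 0.32 (Cdc25b). Of the 5 mitotic genes outside the 41 called lower without the offset, 3 were also called lower with it (Cenpm, Oip5 and E2f4), and all 4 called higher were also called higher with it.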
